A study of Mus musculus with 6 samples.

Results

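The genes described here are 10 genes of heart muscle: the myosin heavy chains Myh6 and Myh7, the myosin light chains Myl2, Myl4 and Myl7, the thin-filament genes Tnnt2, Tnni3 and Actc1, the atrial hormone gene Nppa and the calcium release channel gene Ryr2. They were chosen by symbol, with earlier results of these data known. All 15 probe sets annotated to exactly 1 of these symbols were taken, out of 45037 probe sets on the array, and all 10 genes had at least 1, out of 18193 named genes. A further 2 probe sets, annotated to both Myh6 and Myh7, were left out because their signal cannot be assigned to either gene. The study measured total RNA of whole mouse lung at postnatal day 15 on 6 Affymetrix arrays, 1 per sample, in a study of the transcription factor Foxa2 in allergic-type inflammation and mucous cells. The 3 controls carry the genotype label wildtype, and the 3 null samples the label Foxa2-/-. The strain label of both groups reads SPC(+)Cre(-), with doxycycline (Dox) from embryonic day 6.5 to 12.5, so that label does not separate the groups and goes against the genotype label of the null samples. No label names the cells in which Foxa2 was deleted. Nor do the labels tie each array to its own mouse, and the p-values below reflect variation among these samples, part of which could be technical.

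Cardiac muscle contracts by the sliding of myosin thick filaments along actin thin filaments, gated by the troponin complex when calcium is released from the sarcoplasmic reticulum. In mice a sleeve of such muscle, close to atrial muscle in the genes it uses, runs from the left atrium along the pulmonary veins into the lung. Whole-lung RNA can therefore hold heart muscle transcripts with no heart in the sample, and it can also hold them where atrial tissue is left on the lung. These sources cannot be told apart in whole-lung RNA.

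Values are deposited log2 signals, on a scale where 1 unit is a doubling. Foxa2 read 10.28, 10.56 and 10.28 in control replicates 1 to 3 and 7.72, 5.38 and 5.13 in null replicates 1 to 3, so the signal was lower in every null array, with replicate 1 keeping the most (limma adjusted p = 0.0599). Null replicates 2 and 3 lay below the 25th percentile of their arrays, so no fold is given. Medians of all probe sets lay between 7.85 and 7.91 on the 6 arrays. A pair of arrays stand apart for muscle genes and are named first because several results rest on them. In control replicate 1, 14 of 24 skeletal muscle genes read more than 1 log2 unit above every other array. Null replicate 2 had the lowest signal of all arrays for 9 of the 10 cardiac genes, while over all 18193 genes it was the lowest array for 15.2%.

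The atrial marker genes Myl4 and Myl7 lay above the 75th percentile of all probe sets on all 6 arrays, as did Tbx5, a transcription factor of atrial and also lung tissue. Bmp10, a growth factor of the right atrium, lay below the 25th percentile on all 6 (3.94 to 4.46), and so did Irx4, a transcription factor of ventricles (4.36 to 4.84). Hey2, a further factor of ventricles that is also made in vessels, lay above the median on all 6 arrays (10.03 to 10.70). The atrial channel gene Kcnj3 was above the median on 0 arrays and below the 25th percentile on 2. Nppa never reached the median of its array (5.94 to 7.39). The ventricular light chain gene Myl2 exceeded the array median in control replicate 1 only, while Myl3, its essential light chain partner in ventricle and slow skeletal muscle, read 9.56 to 12.34. The atrial marker Sln read 6.53 to 8.86, above the median on 4 arrays. Myh7, grouped here with ventricle, read 7.76 to 11.37 and was above the 75th percentile on 3. The members thus include bright heart muscle genes in every lung, among them the atrial Myl4 and Myl7. Over all these markers, members or not, each chamber had bright and dim ones. The ventricular markers above the median on all 6 arrays were Myl3 and Hey2, both also made outside ventricle.

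No cardiac muscle gene passed the test, although all 10 had a lower mean in the null lungs. limma, with Benjamini-Hochberg adjustment over all 18193 genes, called 0 of the 10 at an adjusted p under 0.05, where 0.572% of all genes were called and 0.0989% were called lower. At an unadjusted p under 0.05 it singled out 1, Myh7, where 5.07% of all genes were lower at that level. Differences ran from -2.48 to -0.31 log2 units with a median of -0.59, against a median of 0.01 over all genes, and 49.2% of all genes had a negative difference. Over probe sets, 0 of the 15 passed, against 0.0999% of all probe sets and 0.02% lower. All 15 differences were negative, against 48.9% of all probe sets, and 1 had an unadjusted p under 0.05, against 10.7% in either direction and 4.66% lower. In 1 of the 15 every null array lay below every control, against 7.76%, and in 0 above, against 9.73%. In 1 gene, again Myh7, every null array lay below every control array, a pattern met by 8.73% of all genes. The members were chosen with earlier results known, so these shares are a description and no test of the list. Fewer muscle cells and less RNA per muscle cell cannot be told apart in these values. The plot of each array's values shows null replicate 2 as the lowest array for all but Myl2.

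**Figure D1:**
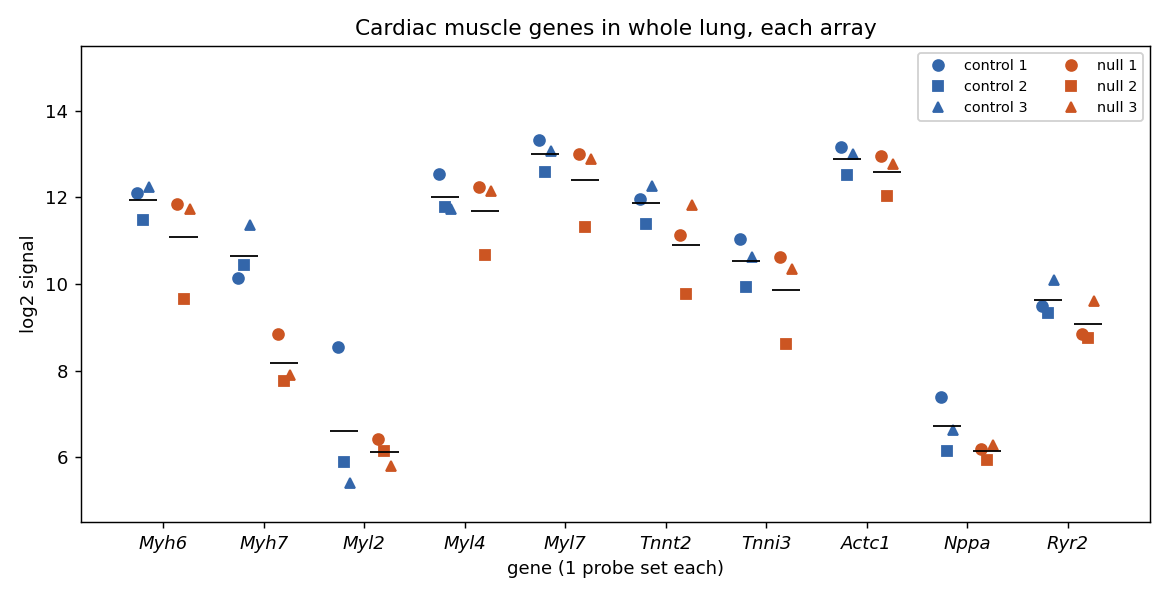
Log2 signal (y axis) of the 10 cardiac muscle genes (x axis, 1 probe set each) on each of the 6 arrays, with controls in blue, Foxa2-/- in orange, symbols for replicates 1 to 3 and a bar at each group's mean. The groups are separate for Myh7 only, Myl2 is high in control replicate 1 only, and null replicate 2 is the lowest array for 9 of the 10 genes.

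Among the myosin heavy chains, the motors of the thick filament, Myh7 showed the widest difference. Its values come from 1 probe set, with no further probe set of Myh7 alone to set beside it. Myh7 encodes the slow beta heavy chain, made by fetal ventricle and by slow skeletal muscle. It read 10.13, 10.43 and 11.37 in control replicates 1 to 3 and 8.84, 7.76 and 7.90 in null replicates 1 to 3. All null arrays lay below all controls, and the nearest values, of control replicate 1 and null replicate 1, were still apart by over 1 unit. The mean went from 10.64 ± 0.64 to 8.17 ± 0.59 (SD, n = 3 each), 5.57-fold lower. On the log2 scale this is -2.48 (SE 0.40), with bounds of -3.45 and -1.51 at 95%. It missed the threshold, with a limma adjusted p of 0.0658 over genes and 0.105 over probe sets. Without null replicate 1, which kept the most Foxa2 signal, it was -2.81 (limma adjusted p = 0.0401 over genes), but over probe sets it did not pass. Array weights gave -2.61 (limma adjusted p = 0.0127 over genes). Leaving out any other array gave differences of -2.73 to -2.12, and none of these passed. The arrays that share a number in their titles, control replicate 2 and null replicates 2 and 3, gave -2.60 (limma adjusted p = 0.147), and that number as a random block gave -2.48 (limma adjusted p = 0.0205).

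Myh6 encodes the fast alpha heavy chain of atrium and of the adult mouse ventricle. Its brighter probe set read 12.11, 11.48 and 12.24 in controls and 11.86, 9.65 and 11.72 in null lungs. Null replicates 1 and 3 lay within the control range, and null replicate 2 was 4.72-fold below the mean of the other 5 arrays. The difference of -0.87 (SE 0.60, limma adjusted p = 0.619) shrank to -0.15 without null replicate 2. A dimmer probe set of Myh6 gave -0.87 as well (limma adjusted p = 0.629 over probe sets), with 4.39 in null replicate 2 and 6.18 to 6.89 on the other arrays.

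Measured within arrays, Myh7 lay apart by group from the median of the other cardiac genes, though not from each of them. Each gene's deviation from its own mean over the 6 arrays was used, which sets no gene's level against another's. Myh7's deviation minus the median deviation of the other 9 genes was 0.11, 1.13 and 1.59 in control replicates 1 to 3 and -0.77, -0.46 and -1.68 in null replicates 1 to 3. All null arrays lay below all controls, with a mean gap of -1.92 log2 units. Taken against each of the other 9 genes singly, the groups were separate for 6 and overlapped for Myh6, Myl2 and Tnni3. Myh7 alone among the members had separate groups to begin with, so the count of 6 partly carries that over. The share of all genes with such a pattern was not computed. This contrast was chosen after the values were seen and has no test.

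**Figure D2:**
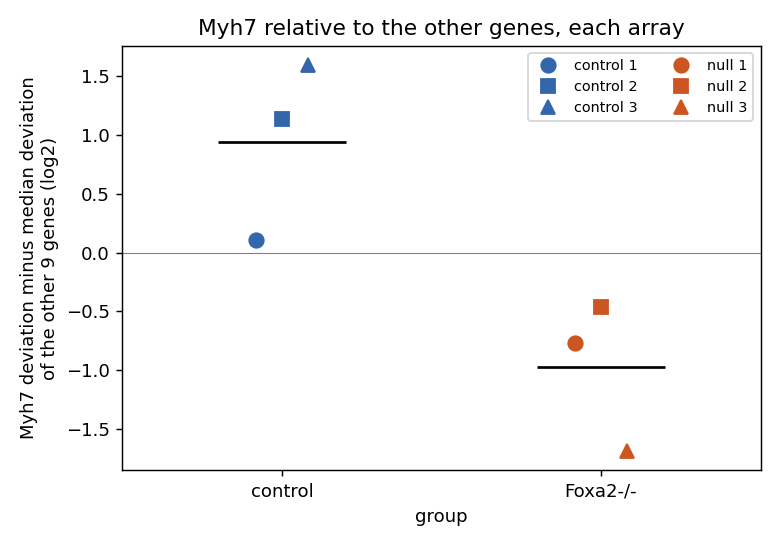
Deviation of Myh7 minus the median deviation of the other 9 cardiac genes (y axis, log2 units, each gene's deviation taken from its own mean over 6 arrays) on each array by group, with a bar at the group mean. Controls lie from 0.11 to 1.59 and null arrays from -1.68 to -0.46.

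The light chains wrap the neck of the myosin motor. Myl7, the regulatory light chain of atria, read 13.32, 12.60 and 13.07 in controls and 13.01, 11.32 and 12.88 in null lungs. Myl4, the essential light chain of atria, read 12.54, 11.77 and 11.74 in controls and 12.25, 10.67 and 12.14 in null lungs. In both genes null replicates 1 and 3 were within the control range and null replicate 2 lay at least 1 unit below every other array. The difference was -0.59 for Myl7 (SE 0.46, limma adjusted p = 0.664) and -0.33 for Myl4 (SE 0.46, limma adjusted p = 0.804). Without null replicate 2 it was -0.05 for Myl7, and for Myl4 it changed sign to 0.18. A dimmer Myl4 probe set, below the 25th percentile on 4 arrays, gave -0.11.

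Myl2 encodes the regulatory light chain of ventricle and of slow skeletal muscle. Its 3 control values were 8.56, 5.89 and 5.41, and the null values were 6.43, 6.14 and 5.79. Control replicate 1 alone was high, by 2.13 over the next array, and the other 5 arrays read 5.41 to 6.43, where the 25th percentile of an array was 5.69 to 5.78. The difference of -0.50 (SE 0.79, limma adjusted p = 0.829) turned to 0.47 without control replicate 1 (limma adjusted p = 0.673). That array is the one with raised skeletal muscle genes, and the part of these in the Myl2 value was not tested. For the other 9 members, control replicate 1 exceeded every other array by 0.76 at most, in Nppa.

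Thin-filament genes followed null replicate 2 in the same way. Tnnt2, cardiac troponin T, which ties troponin to tropomyosin, read 11.96, 11.40 and 12.27 in controls and 11.14, 9.77 and 11.83 in null lungs. Tnni3, cardiac troponin I, the inhibitory subunit, read 11.04, 9.92 and 10.62 in controls and 10.64, 8.61 and 10.36 in null lungs. Actc1, cardiac alpha-actin, the filament itself, read 13.17, 12.52 and 12.99 in controls and 12.95, 12.04 and 12.77 in null lungs. Groups overlapped in all 3 genes, and null replicate 2 was the lowest array in each, 3.88-fold below the mean of the other 5 for Tnnt2, 3.75-fold for Tnni3 and 1.79-fold for Actc1. The differences were -0.97 for Tnnt2 (SE 0.52, limma adjusted p = 0.529), -0.66 for Tnni3 (SE 0.57, limma adjusted p = 0.689) and -0.31 for Actc1 (SE 0.28, limma adjusted p = 0.705). Without null replicate 2 they were -0.39, -0.03 and -0.04. A bright further probe set of Tnnt2 gave -0.92, and a dim one, below the 25th percentile on 5 arrays, gave -0.22.

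Nppa encodes atrial natriuretic peptide, the hormone that atria release when stretched. It read 7.39, 6.15 and 6.64 in controls and 6.19, 5.94 and 6.27 in null lungs, so control replicate 2 lay among the null arrays. The difference of -0.59 (SE 0.31, limma adjusted p = 0.513) became -0.25 without control replicate 1 and was -0.04 among the arrays that share a title number. Ryr2, the channel that releases calcium from the sarcoplasmic reticulum, read 9.50, 9.32 and 10.09 in controls and 8.85, 8.74 and 9.61 in null lungs. Null replicate 3 lay above control replicates 1 and 2, and the difference was -0.57 (SE 0.30, limma adjusted p = 0.507). Its dimmer probe set gave -0.33.

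**Figure D3:**
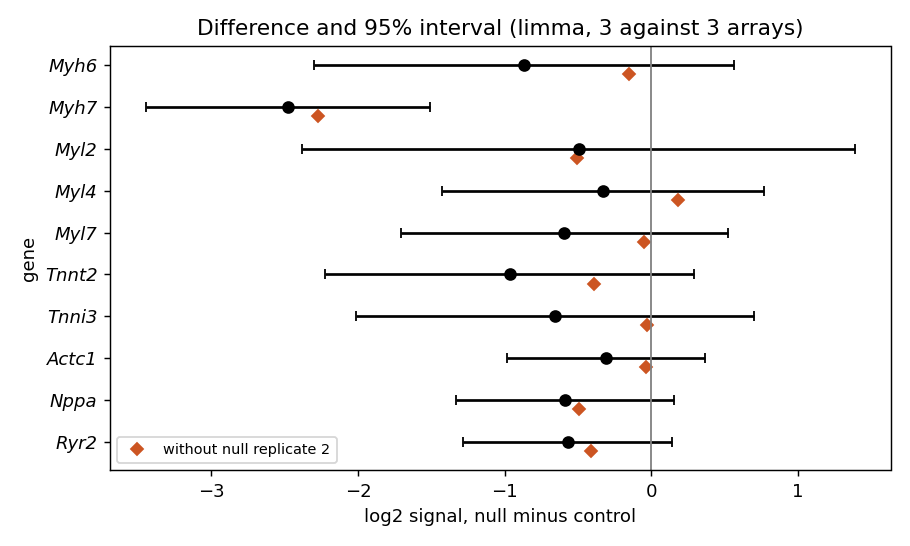
Null minus control difference in log2 signal (x axis) of each cardiac muscle gene (y axis), with black points and 95% limma intervals from 3 against 3 arrays and orange diamonds for the difference without null replicate 2. The interval excludes 0 for Myh7 only, and without null replicate 2 Myl7, Tnni3 and Actc1 lie at -0.05, -0.03 and -0.04 and Myl4 at 0.18.

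The profiles of the 10 genes over the arrays were compared after centring. Their median deviation was 0.65, -0.09 and 0.40 in control replicates 1 to 3 and 0.13, -1.28 and 0.17 in null replicates 1 to 3. The root mean square distance of a gene's centred profile from the mean profile of the other 9 was 0.22 for Myl7, the closest, and 0.29 to 0.48 for Actc1, Tnni3, Myl4, Nppa, Tnnt2, Myh6 and Ryr2. It was 1.04 for Myl2 and 1.12 for Myh7, the farthest. The distance grows with a gene's own spread, whose SD over the arrays was 0.41 for Actc1, 0.50 for Ryr2, 0.72 for Myl7, 0.86 for Tnni3, 1.12 for Myl2 and 1.46 for Myh7. The distance was thus close to the whole SD for Ryr2 and Myl2, and well below it for Myl7 and Tnni3. The highest array was control replicate 1 for 6 genes and control replicate 3 for 4, where over all genes these were the highest array for 12.6% and 15.4%. The median difference of the 10 was -0.27 without null replicate 2, -0.42 without control replicate 1 and -0.40 among the arrays that share a title number.

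**Figure D4:**
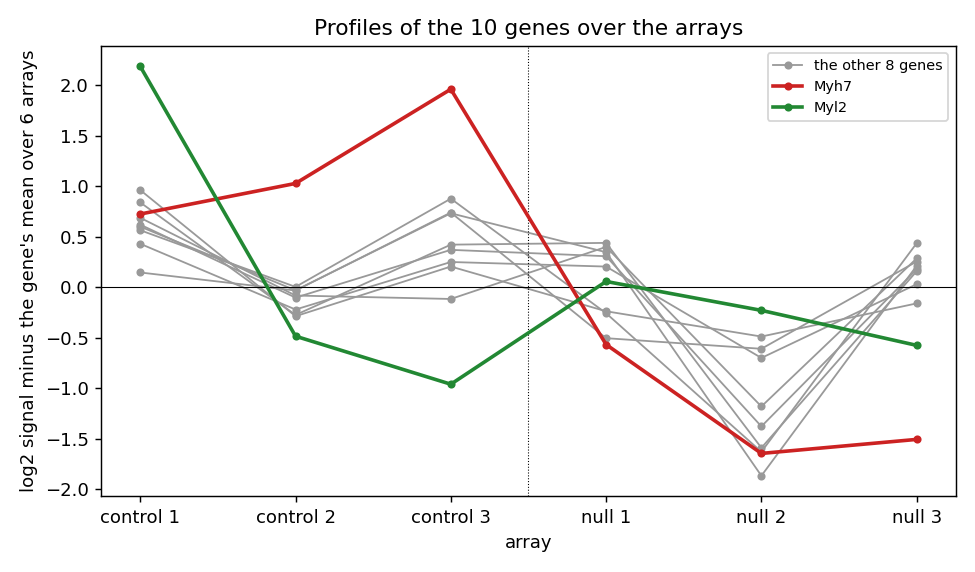
Centred log2 signal (y axis, each gene minus its mean over the 6 arrays) of the 10 genes on each array (x axis), with Myh7 in red, Myl2 in green and the other 8 in grey. The grey genes are each lowest in null replicate 2. Their gap to the next lowest array is -1.84 for Myh6 but -0.11 for Ryr2 and -0.20 for Nppa. Myl2 peaks in control replicate 1 at 2.19, and Myh7 stays below 0 in all 3 null arrays.

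The promoters of 4 of the genes are shown as a description, and a link of promoter sequence to the array profiles was not tested. The RefSeq windows run from 250 bases before to 50 after a gene's start (assembly GRCm38.p6). All 4 lie on the minus strand and are printed in the direction of the gene. The genes are the heavy chain pair, which lie on the same chromosome and differed in profile, and Myl7 and Actc1. Myl7 and Actc1 were at the smallest distance from the others, and Actc1 also had the smallest SD. The windows are chr14:54966558-54966857 for Myh6, chr14:54994577-54994876 for Myh7, chr11:5898733-5899032 for Myl7 and chr2:114052826-114053125 for Actc1. The Myh7 window is 1 of 2 that overlap, and the other, chr14:54994500-54994799, holds no match to any motif searched. Capitals mark motif matches on either strand.
Myh6: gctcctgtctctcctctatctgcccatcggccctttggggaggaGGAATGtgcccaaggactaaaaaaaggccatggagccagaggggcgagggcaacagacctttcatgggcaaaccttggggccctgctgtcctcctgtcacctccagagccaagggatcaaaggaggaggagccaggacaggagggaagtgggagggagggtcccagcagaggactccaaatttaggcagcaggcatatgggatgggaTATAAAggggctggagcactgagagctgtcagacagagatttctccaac
Myh7: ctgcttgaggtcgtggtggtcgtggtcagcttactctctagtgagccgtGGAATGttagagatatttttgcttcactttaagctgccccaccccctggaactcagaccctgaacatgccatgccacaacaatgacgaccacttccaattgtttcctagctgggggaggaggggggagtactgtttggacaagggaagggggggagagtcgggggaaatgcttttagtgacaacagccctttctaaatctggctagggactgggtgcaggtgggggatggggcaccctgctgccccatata
Myl7: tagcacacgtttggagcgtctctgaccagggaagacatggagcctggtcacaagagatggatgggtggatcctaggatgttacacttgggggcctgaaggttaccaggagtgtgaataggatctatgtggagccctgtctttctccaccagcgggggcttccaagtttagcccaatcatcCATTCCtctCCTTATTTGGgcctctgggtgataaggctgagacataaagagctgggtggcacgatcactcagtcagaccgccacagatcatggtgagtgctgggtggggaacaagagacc
Actc1: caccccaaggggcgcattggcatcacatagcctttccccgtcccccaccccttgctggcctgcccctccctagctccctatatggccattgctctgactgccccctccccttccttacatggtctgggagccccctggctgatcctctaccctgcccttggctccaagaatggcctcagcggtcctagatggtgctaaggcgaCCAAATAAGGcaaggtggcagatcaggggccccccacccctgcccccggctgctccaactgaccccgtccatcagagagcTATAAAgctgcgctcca
All 10 genes had a window, 13 in all. The motifs searched were TATAAA, the GATA motif AGATAA, the TEAD motif CATTCC, the forkhead core TGTTTAC, the CArG box of serum response factor and the MEF2 site. None overlapped another in these windows. The CArG box, found in Myl7 and Actc1, was in 2 of the 13 windows and in 1.63% of 32851 windows of all genes. TATAAA (Myh6, Myl2, Actc1, Nppa) and CATTCC (Myh6, Myh7, Myl7, Tnnt2) were each in 4 windows, where all genes had 13.6% and 14.7%. AGATAA was in 2, against 11.2%, and neither TGTTTAC (3.65% of all windows) nor the MEF2 site (0.557%) was in any of the 13. A match describes letters only.

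Most further sarcomere and Z-disc genes were, like the members, lowest in null replicate 2, and none passed. Of 26 further sarcomere and Z-disc genes, 24 were measured, 23 had a negative difference, 0 passed in either direction, and the median was -0.61. limma gave 0 of the 24 an unadjusted p under 0.05, where 12.3% of all genes had one. Null replicate 2 was the lowest array for 19 of the 24, and the median was -0.23 without it. Ldb3, a Z-disc protein (-0.67, limma adjusted p = 0.405), Fhl2 (-0.30, 0.431) and Nexn, an actin-binding protein (-0.73, 0.49), had the smallest p. The brightest were Tpm1, an alpha-tropomyosin also made by smooth muscle (-0.06), Cryab, a small heat shock protein (-0.06), and Nebl (-0.29). Groups were separate for Fhl2 and Nexn, 2 of the 24, against 8.73% of all genes.

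Of 18 genes of cardiac calcium handling and excitation, 16 were measured, 13 were negative with a median of -0.46, and 0 passed by limma, with 2 at an unadjusted p under 0.05, both lower, against 5.07% of all genes. Cacna1c, the pore of the L-type calcium channel, went from 11.13, 11.25 and 11.22 to 10.73, 10.82 and 10.98 in replicates 1 to 3 of each group, every null array below every control (-0.36, SE 0.11, limma adjusted p = 0.278). Popdc2 differed by -0.56 (limma adjusted p = 0.379) and Kcnj3, a potassium channel of atria, by -1.06 (0.473). Atp2a2, the calcium pump that refills the sarcoplasmic reticulum, and Gja1, a gap junction protein, are also used outside the heart and differed by 0.14 and 0.15. Null replicate 2 was the lowest array for 9 of the 16.

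Cardiac transcription factors showed little of the dip in null replicate 2, which was the lowest array for 5 of 19 measured of 20. Their median was -0.15, and 0 passed by limma, with 1 at an unadjusted p under 0.05, against 12.3% of all genes. Tbx20, a T-box factor of heart, read 8.16, 7.66 and 9.10 in controls and 6.004, 6.07 and 7.93 in null lungs, a difference of -1.64 (SE 0.60, limma adjusted p = 0.342). Here null replicates 1 and 2 were low and null replicate 3 lay among the controls. Tbx5 differed by -0.35 (limma adjusted p = 0.448) with separate groups, and Tead1 by -0.41 (0.504). Hopx, Nr2f2 and Mef2a, the brightest of this list, differed by -0.08, -0.20 and -0.37. Some of the list were dim, such as Nkx2-5 at 5.06 to 5.81, Isl1 at 5.31 to 5.64 and Irx4 at 4.36 to 4.84. Others, such as Tbx5 and Hey2, are also made in lung or vessels. How far this list reports on heart muscle in whole lung was not tested.

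In the natriuretic peptide pathway Corin, the protease that cuts the precursor made by Nppa, had a higher mean in the null lungs. Corin read 5.85, 5.55 and 6.96 in controls and 7.76, 9.07 and 8.74 in null lungs. Control replicates 1 and 2 were dim, near the 25th percentiles of their arrays (5.75 and 5.69), so the size of the difference is uncertain. Every null array lay above every control, a pattern met by 10.8% of all genes, and the difference was 2.40 (SE 0.46, limma adjusted p = 0.0948). It missed the threshold in the plain fit and passed with array weights and with a random block for the title number. The receptors Npr1 and Npr2 differed by -0.18 and -0.46, and Furin, another precursor-cutting protease, and Adm, the hormone adrenomedullin, by 0.07 and 0.12. Of the 10 genes of that list 0 passed by limma, and 1 had an unadjusted p under 0.05, against 12.3% of all genes. Of the 10, 6 were positive and 4 negative, and the median was 0.04.

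Muscle energy genes had a median of -0.32 over 14, with 0 passed by limma and 1 at an unadjusted p under 0.05, against 12.3% of all genes. Null replicate 2 was the lowest array for 10. Control replicate 1 was highest for 10 of the 14 as well, and without it the median was 0.02. Mb, myoglobin, which stores oxygen in heart and slow skeletal muscle, read 11.13 in control replicate 1 and 7.61 to 9.89 elsewhere. Ldhb, the heart-type lactate dehydrogenase subunit, read 12.11, 11.52 and 11.64 in controls and 12.63, 12.66 and 12.52 in null lungs. All null arrays lay above all controls for Ldhb, against the direction of the sarcomere genes, with a difference of 0.85 (SE 0.17, limma adjusted p = 0.108). It passed with a random block for the title number. Eno3 differed by -0.43, Fabp3 by -0.26, Pdk4 by -0.40 and Slc25a4 by -0.12, none of which passed.

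Markers of neighbouring tissues moved with single arrays or with the groups, and their part in the cardiac values was not tested. Skeletal muscle genes averaged 8.79 in control replicate 1 over 24 genes, 6.11 to 6.17 in the other controls and 6.23 to 6.42 in null lungs. Of these genes 0 passed by limma and 1 had an unadjusted p under 0.05, against 12.3% of all genes. Their median difference of -0.77 was 0.09 without control replicate 1. Acta1, skeletal alpha-actin, read 11.77 there and 5.76 to 6.16 on the other 5 arrays, and Myh1, a fast heavy chain, 11.05 against 3.52 to 4.02. Thymus genes averaged, over 11 genes, 5.64 to 6.63 on control arrays and 7.51 to 8.86 on null arrays, highest in null replicate 2, the array with the lowest cardiac genes. Of the 11, 10 had a positive difference, 6 had an unadjusted p under 0.05 (12.3% of all genes) and 6 had every null array above every control (10.8% of all genes). In that list 1 gene passed, against 0.572% of all genes. It was Dntt, the DNA polymerase of developing lymphocytes, higher in null lungs (4.08, SE 0.56, limma adjusted p = 0.0454). Dntt did not pass with any 1 array left out. The median of the list was 1.62, and 0.65 without null replicate 2. Rag1, which cuts receptor genes of lymphocytes, differed by 4.24 (limma adjusted p = 0.0534) and passed under several alternatives, median centring and array weights among them. Among genes of thymic epithelium, Psmb11 differed by 0.71, Prss16 by 1.62, Ccl25 by 0.83 and Foxn1 by -0.08, and none passed. Prss16 read 5.60, 9.16 and 6.90 in null replicates 1 to 3 and 5.48 to 5.73 in controls. Ccl25 read 8.41, 10.60 and 9.24 in null replicates 1 to 3 and 8.51 to 8.67 in controls. Both were thus highest in null replicate 2, with null replicate 1 not above the controls. Psmb11 was dim, at 4.86 to 5.89 over the arrays. The lung genes Sftpc, Scgb1a1, Ager and Cldn5 were bright on all arrays and differed by -0.25 to -0.03. RNA quality was read from Gapdh control probes as 3-prime minus 5-prime signal, with values of 1.21, 1.23 and 1.06 on the control arrays and 0.96, 0.91 and 0.97 on the null arrays, so all null arrays lay below all controls. The same measure for Actb was 0.57, 0.65 and 0.46 in controls and 0.44, 0.43 and 0.47 in null lungs, with the groups overlapping. Their part in the Myh7 value was not tested.

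**Figure D5:**
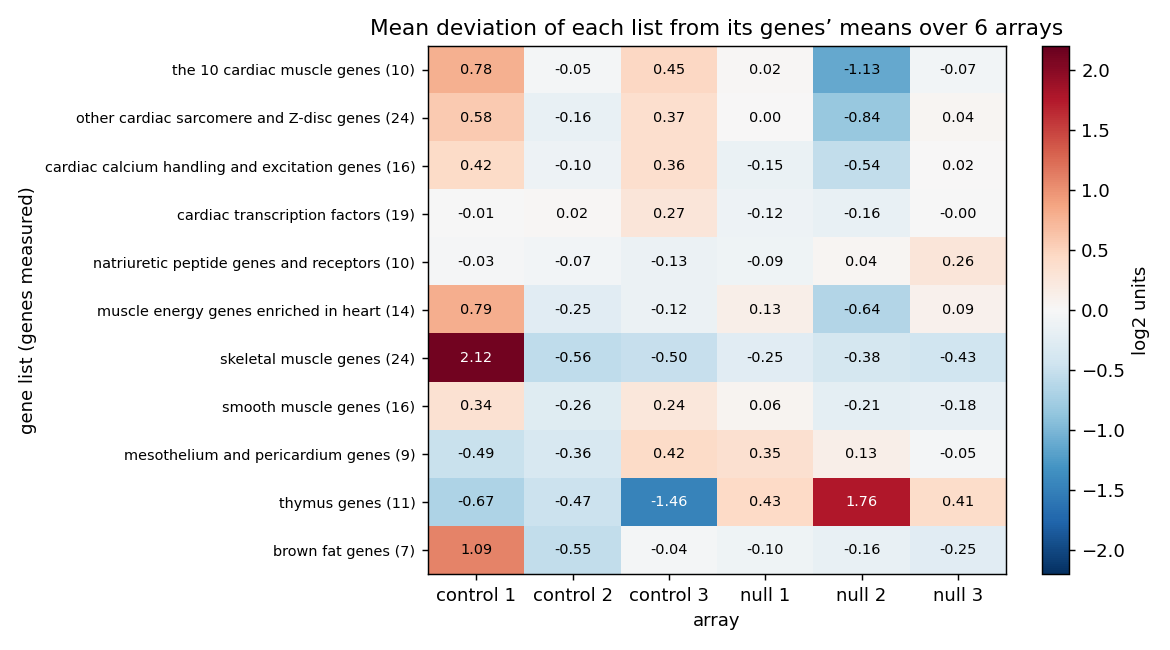
Mean deviation of each gene list (rows, with the number of genes measured) from its genes' own means over 6 arrays, in log2 units, on each array (columns). The 10 cardiac genes (-1.13) and the sarcomere, calcium handling and energy lists are lowest in null replicate 2, skeletal muscle genes are high in control replicate 1 only (2.12), and thymus genes are higher in all null arrays.

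Genes outside the 10 with the most similar profile were sought among 9088 genes brighter than the median, by the root mean square distance from the members' mean centred profile over the 6 arrays. The closest were Srl, sarcalumenin, a calcium-binding protein of the sarcoplasmic reticulum (0.18 log2 units), Mpp3, a membrane scaffold protein (0.18), and Tnnc1, the calcium-binding troponin subunit of heart and slow muscle (0.20). Adamts1, Cdkn1c, Tcap, Art3 and Amigo2 followed at 0.26 to 0.27. Of these 8, Tnnc1 and Tcap stand in the list of sarcomere and Z-disc genes. Srl read 10.49, 9.46 and 9.81 in controls and 9.78, 8.71 and 9.38 in null lungs, again lowest in null replicate 2. None of the 8 passed (limma adjusted p of 0.216 to 0.66).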

How the data were processed

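The deposited values are log2 signals per probe set that the authors made with RMA, per the submitters' processing notes. RMA corrects background, equalises the arrays and summarises probes, so a shift of most genes would not show and values near the floor or top are compressed. No source used here gives its version or settings, and scanner files were not used. Values ran from 2.36 to 14.95, as a log2 scale would. Of 45101 probe sets, 64 Affymetrix controls were left out and no dim ones. The platform annotation gave 34945 probe sets 1 symbol and 932 several, and left 9160 unnamed here. RefSeq (GRCm38.p6) served for names, chromosomes and promoters.

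Null minus control was fitted with limma 3.58.1 in R 4.3.3 (lmFit, eBayes, no covariate, two-sided, 95% intervals), adjusted over all 45037 probe sets, and separately over 18193 genes with each gene's brightest probe set. An adjusted p under 0.05 was the threshold, and fitting was tested on simulated data. The depth is that of 3 arrays per group, whose number limits the precision. Alternatives were median centring, cyclic loess (between arrays), a brightness filter, array weights, trend with robust variance, a fixed or random block (statmod 1.5.0) for the title number, each array left out, probe sets averaged by gene and a threshold of 0.1.

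Members and lists were chosen with earlier results of these data known. Genes named were every member, Foxa2, from each list those that passed or else the 3 with the smallest p and the 3 brightest, and the 8 most similar in profile. Acta1, Myh1, Rag1, Psmb11, Prss16, Ccl25, Foxn1 and the chamber markers were named after their values were seen or as markers. Listed genes without a named probe set were not analysed here. Replicate numbers follow accession order and pair nothing.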

Additional observations from a re-analysis of the deposited data

How the results depend on the processing

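Of 148 values of single members under 15 alternatives, 141 kept their direction and their side of the threshold, 4 passed where the reported value did not (all Myh7) and 3 changed sign. Myl2 was 0.082 with the title number as a fixed block, and leaving out 1 array gave -1.10 to 0.47 for Myl2 and -0.61 to 0.18 for Myl4. The cause was not tested. The number of members called, 0 among genes and among probe sets, became 1 of each with array weights and with a random block for the title number, and 1 gene with a threshold of 0.1. Leaving out 1 array gave 0 to 1 genes, the 1 without null replicate 1, and 0 to 0 probe sets. The median difference of the 10 genes was -0.87 to -0.27 with 1 array left out. Among genes of the comparison lists the count of 1 became 2 with median centring, the brightness filter, trend and robust settings and the mean of probe sets, 4 with array weights, the random block and a threshold of 0.1, and 0 with cyclic loess and the fixed block; with 1 array left out it was 0 to 0. The brightness filter left out Myl2 and Nppa. No paired analysis was possible because replicate numbers follow accession order; the title number, shared by 1 control and 2 null arrays, was used as a block instead. No call of signal above background was made, so it is not known whether the dim values of Myl2 and Nppa exceed it. Myl2 was below the 25th percentile on 1 array and Nppa on 0.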

Other observations

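Of 16 smooth muscle genes of airways and vessels, 0 passed by limma and 1 had an unadjusted p under 0.05, against 12.3% of all genes. Of the 16, 13 were negative, the median was -0.18, and null replicate 2 was the lowest array for 2. In 3 of them every null array lay below every control, a pattern met by 8.73% of all genes. Hhip, a hedgehog-binding protein of lung mesenchyme, read 11.42, 11.09 and 11.21 in controls and 9.74, 10.24 and 10.47 in null lungs, all null arrays lower (-1.09, SE 0.21, limma adjusted p = 0.0934, passing with array weights). Cald1 (-0.19), Tagln (-0.30), Mylk (-0.10) and Acta2 (-0.08) differed less, and Cald1 and Mylk also had separate groups. Brown fat genes were highest in control replicate 1 for 5 of 7, with Ucp1, the heat-producing uncoupling protein, at 9.08 there and 6.18 to 7.65 elsewhere. Of the 7, 0 passed by limma and 1 had an unadjusted p under 0.05, against 12.3% of all genes. The differences were -0.22 for Ucp1, -0.24 for Cidea, -0.54 for Plin5, -1.50 for Adipoq and 0.34 for Lep.

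Mesothelium and pericardium genes had a median of 0.15 over 9, with 0 passed by limma and 1 at an unadjusted p under 0.05. The share at that level was 12.3% of all genes. Null replicate 2 was the lowest array for 1. Lrrn4, a marker of mesothelium, read 6.99, 6.99 and 8.29 in controls and 8.98, 8.98 and 8.54 in null lungs, all null arrays higher (1.41, limma adjusted p = 0.186). Krt19 (0.30) and Msln (0.70) had the next smallest p, and Gpm6a differed by -0.07. The skeletal muscle genes with the smallest p did not all peak in control replicate 1. Mybpc2 differed by 1.43 (limma adjusted p = 0.324) and Ryr1 by 0.73, both highest in a null array, and Neb, which was highest in control replicate 1, by -0.96. Tnnt1, slow troponin T, was bright on all arrays (9.20 to 10.08) and differed by -0.23.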
